A study of Mus musculus with 2 samples.

Results

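The genes described here are 8 cytokine genes of the thymic stroma, Il7, Kitl, Tslp, Il15, Flt3l, Tgfb1, Tgfb2 and Csf1, together with 2 receptor genes, Il7r and Kit. They were taken by gene symbol from the single-symbol probe sets of an Affymetrix microarray, as 10 of 19938 genes. All 10 were found, each with 1 probe set, and 0 probe sets annotated to several genes carried any of them. Both arrays read total RNA of cortical thymic epithelial cells (cTECs). One was made from Aire transgenic mice (Tg), a semi-knockin strain in which Aire is expressed from the promoter of β5t, the cortical thymoproteasome subunit encoded by Psmb11. The other was made from control mice (non-Tg). The source labels count 7 Tg and 5 non-Tg, read here as the animals that were pooled. All were at day 7 and of the NOD background, which is prone to autoimmune diabetes. Because the β5t promoter is active in cTECs, the transgene models Aire in a cell type that normally makes little of it. Each group had 1 array, so no difference below has a replicate check and no p-value was computed.

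Thymocytes depend for survival and growth on factors from the epithelium around them. Interleukin 7 (IL-7), secreted by thymic epithelial cells, signals through the IL-7 receptor α chain (Il7r) and the common γ chain to JAK kinases and STAT5, and it sustains the earliest T cell precursors. Kit ligand (Kitl, stem cell factor) and FLT3 ligand act on the receptor kinases KIT and FLT3 of those precursors. TSLP uses the IL-7 receptor α chain paired with its own receptor, Crlf2, and IL-15 is displayed to neighbouring cells bound to IL-15Rα. The transforming growth factors TGF-β1 and TGF-β2 are released as latent complexes that must be activated, and colony stimulating factor 1 (Csf1) supports macrophages.

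Promoter sequences are shown for the gene whose promoter drives the transgene and for 2 of the 10 genes, one whose probe set lay well above the median of both arrays (Kitl) and one whose probe set did not (Il7r). Each is the 250 bases before the annotated start from RefSeq, build GRCm38.p6, 5′ to 3′ on the strand of the gene, with CG dinucleotides in capitals. Psmb11 lies at chr14:54625060-54625309 on the plus strand, Kitl at chr10:100015571-100015820 on the plus strand, and Il7r at chr15:9529877-9530126 on the minus strand.
Psmb11: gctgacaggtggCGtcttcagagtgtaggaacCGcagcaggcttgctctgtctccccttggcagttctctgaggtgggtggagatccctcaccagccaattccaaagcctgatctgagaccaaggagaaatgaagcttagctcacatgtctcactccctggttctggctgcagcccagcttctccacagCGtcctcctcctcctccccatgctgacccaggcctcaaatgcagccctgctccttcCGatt
Kitl: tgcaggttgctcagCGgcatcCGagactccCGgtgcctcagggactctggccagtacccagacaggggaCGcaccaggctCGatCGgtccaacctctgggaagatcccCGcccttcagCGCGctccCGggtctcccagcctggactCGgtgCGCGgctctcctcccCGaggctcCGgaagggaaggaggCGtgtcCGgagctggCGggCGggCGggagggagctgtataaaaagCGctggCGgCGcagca
Il7r: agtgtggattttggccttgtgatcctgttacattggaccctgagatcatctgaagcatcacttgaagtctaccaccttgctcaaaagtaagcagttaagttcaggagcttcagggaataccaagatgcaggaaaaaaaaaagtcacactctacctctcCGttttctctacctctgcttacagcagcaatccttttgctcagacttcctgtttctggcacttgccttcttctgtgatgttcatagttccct
The promoter table held 7 of the 10 genes. The 250 bases of Kitl had 23 CG dinucleotides and those of Il7r had 1, while those of Psmb11 had 4 and the median over 32851 promoters was 6. Among the other genes, the window of Tgfb1 had 21 CG dinucleotides, Flt3l 11, Csf1 10 and Tgfb2 8, and the 2 windows of Kit had 17 and 18. The TATA box letters TATAAA, searched on both strands, were present in the windows of Kitl and Tgfb2, as in 12.4% of all promoters. The STAT-type motif TTCNNNGAA, which reads the same on both strands, was present in the window of Il7r among the 7, as in 7.02% of all promoters.

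Values are log2 levels as deposited, and a log2 ratio is Tg minus non-Tg. A level under 4.80, the 25th percentile of all values, was raised to that floor before the ratio was taken. A gene passed the filter if its probe set reached the array median (5.43 for Tg, 5.45 for non-Tg) on 1 array or both. A gene past the filter was counted as higher or lower in Tg if the ratio was 2-fold or more. The 2 arrays were close to each other over all 28856 probe sets (Pearson r of 0.986 across probe sets, which are not independent replicates). For the transgene itself, Aire had 7.33 on the Tg array and 6.06 on the non-Tg array, a log2 ratio of 1.28, and Psmb11 had 10.51 in Tg, against 10.15 in non-Tg. The nearest substitute for a replicate error was the spread between 2 probe sets of the same gene, an SD of 0.302 for the log2 ratio of 1 probe set over 658 genes. Differences between mice, pools and amplification reactions do not enter it.

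The cytokine genes had closely similar levels on both arrays. Of the 10 genes, 7 passed the filter, and all 7 were cytokine genes. None of these 7 was 2-fold or more higher or lower in Tg (0 of 7). Of all 11422 genes that passed the filter, 1.17% reached that size, 0.797% higher and 0.376% lower. The 3 genes that did not pass could not be counted under this rule. With that background, 0 of 7 is what the share over all genes would also give, so the count says nothing particular to these genes. At a 1.5-fold rule the count was again 0 of 7, against 7.86% of all genes past the filter (4.74% higher and 3.13% lower). The median log2 ratio of the 10 genes was -0.01, with 4 ratios above 0, 5 below (Csf1 among them, which changed sign with centred arrays) and 1 at 0, and the median over all 19938 genes was 0.00. The ratios ran from -0.38 for Il15 to 0.20 for Tgfb1, and 9 of the 10 were smaller in size than the SD between probe sets.

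**Figure D1:**
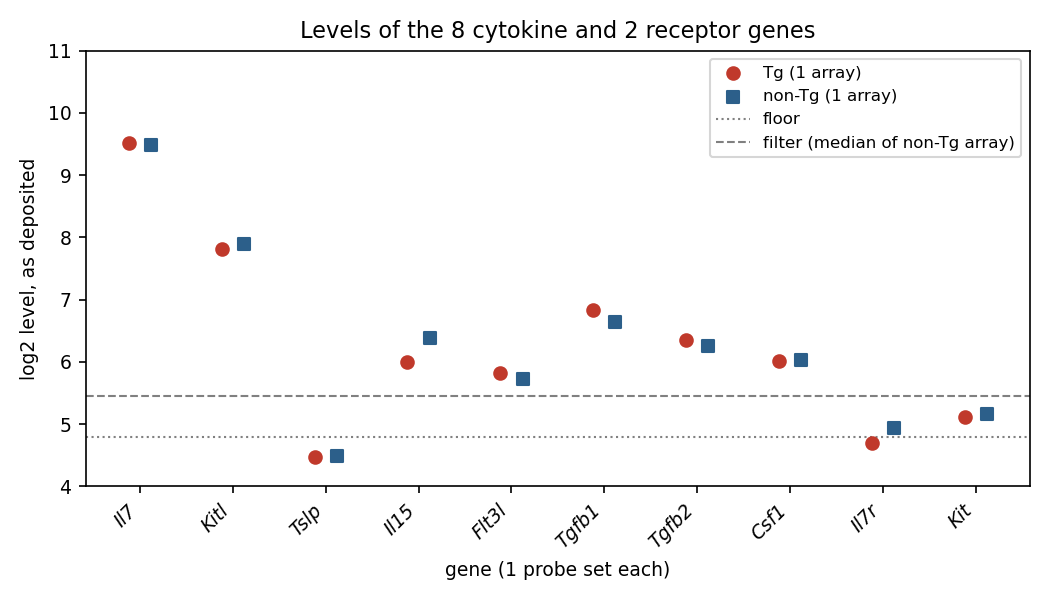
Log2 level as deposited of the 8 cytokine and 2 receptor genes on the Tg array (circles) and the non-Tg array (squares), 1 array per group and 1 probe set per gene. The dotted line is the floor of 4.80 and the dashed line the non-Tg median of 5.45. The points of a pair are farthest apart for Il15, with 6.01 in Tg, against 6.39 in non-Tg, followed by Il7r (4.69 in Tg, 4.94 in non-Tg) and Tgfb1 (6.84 in Tg, 6.63 in non-Tg), and Tslp, Il7r and Kit lie under the dashed line. Levels of different probe sets are not comparable with each other.

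Il7 had a level of 9.51 on the Tg array and 9.49 on the non-Tg array. Its log2 ratio was 0.02, a fold of 1.02, and 93.7% of all genes past the filter had a ratio at least as wide. The difference was far smaller than the SD between probe sets, and the level lay about 4 log2 units above the median of each array (4.08 in Tg, 4.04 in non-Tg). The SD of the ratios of the 216 other genes within 0.25 of its mean level was 0.248.

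Il7r, the receptor chain for IL-7 and TSLP, had 4.69 on the Tg array, under the floor, and 4.94 on the non-Tg array. Neither value reached the median of its array, so the difference of -0.24 without the floor, or -0.14 with it, lies near the lower end of the values, where small changes were not detectable. Early thymocytes and mature T cells carry this receptor, while cortical thymocytes with both coreceptors carry little. Thymocyte RNA was present on both arrays, with Rag1, the recombinase gene, at 10.89 in Tg, against 10.96 in non-Tg. Of 16 thymocyte markers 14 were measured and 13 passed the filter, none was 2-fold apart, and none was under the floor on both arrays. Their median log2 ratio was -0.05, with 4 ratios above 0 and 10 below. Their summed level on the linear scale, in which the brightest probe sets weigh most, was 6172 in Tg, against 6914 in non-Tg, a ratio of 0.893. Thy1, a surface glycoprotein of thymocytes, had the lowest ratio (-0.68) and Themis, a regulator of T cell receptor signalling, the highest (0.21). The part of the thymocyte RNA in the value of Il7r was not tested. In bulk RNA of this kind, fewer cells of a type and less RNA per cell cannot be told apart.

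Tslp was under the floor on both arrays, with 4.47 in Tg, against 4.49 in non-Tg. Its ratio after the floor is therefore 0 by construction, and no statement on a difference can be made from it. Crlf2, the chain that gives TSLP its specificity, passed the filter with 5.76 in Tg, against 6.03 in non-Tg, giving a log2 ratio of -0.27.

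Il15 had the widest ratio of the 10 genes. Its level was 6.01 on the Tg array and 6.39 on the non-Tg array, a log2 ratio of -0.38, which makes non-Tg 1.30 times Tg. Both values passed the filter, by 0.57 in Tg and 0.93 in non-Tg. The ratio exceeded the SD between probe sets of 0.302 and was close to the SD of 0.347 over the 2176 other genes within 0.25 of its level. A ratio at least as wide was found in 20.2% of all genes past the filter, so a difference of this size is common between these 2 arrays.

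The receptor chains Il15ra and Il2rb also had ratios below 0, without reaching 2-fold. Il15ra, the chain that presents IL-15 to neighbouring cells, had 7.79 in Tg, against 8.33 in non-Tg, giving a log2 ratio of -0.54, and 9.42% of genes past the filter had one at least as wide. Il2rb, the β chain shared by the IL-15 and IL-2 receptors, had 5.00 in Tg, against 5.36 in non-Tg, and did not pass the filter (-0.36, and 0 with the floor at the 50th percentile). Il15 and Il15ra are also made by macrophages and dendritic cells. Of 13 markers of those cells 13 were measured, with a median log2 ratio of 0.04, 8 ratios above 0, 2 below and 3 at 0. The 2 that passed the filter were the 2 below 0, Tyrobp, a signalling adaptor, at -0.58 and C1qa, a complement gene, at -0.31. C1qa passed through the non-Tg array alone, where it was higher, which by itself favours a ratio below 0. The highest ratios were those of the lysozyme gene Lyz2 (0.36), the lysosomal gene Cd68 (0.33) and the complement gene C1qc (0.24), dim genes that did not pass. The summed level of the list was 468 in Tg, against 483 in non-Tg. Adgre1, which encodes F4/80, had 5.16 in Tg, against 5.12 in non-Tg, and the integrins Itgam and Itgax were under the floor on both arrays. The part of such cells in the values of Il15 and Il15ra was not tested. Natural killer cells carry Il2rb, and of 8 measured markers of natural killer and innate lymphoid cells 1 passed the filter, Gata3, at -0.27. Gata3, a transcription factor gene of innate lymphoid cells and T cells, passed through the non-Tg array alone, where it was higher. The natural killer receptor gene Ncr1 and the lectin gene Klrb1c were under the floor on both arrays.

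The ligands of receptor tyrosine kinases lay close to 0. Kitl had 7.81 on the Tg array and 7.89 on the non-Tg array, a log2 ratio of -0.08. Flt3l, which encodes FLT3 ligand, had 5.82 in Tg, against 5.73 in non-Tg, giving a log2 ratio of 0.09. Csf1 had 6.02 in Tg, against 6.04 in non-Tg, giving a log2 ratio of -0.02 that became 0.00 when each array was centred on its median. All 3 ratios were smaller in size than the SD between probe sets. Flt3l was the closest to the filter of the 7 genes that passed it, at 0.39 above the median in Tg and 0.28 in non-Tg.

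Kit, the receptor of Kit ligand, had 5.12 on the Tg array and 5.16 on the non-Tg array and did not pass the filter, with a log2 ratio of -0.05. Of 8 mast cell markers, another cell type rich in KIT, 1 passed the filter, the transcription factor gene Gata2 at -0.15 (-0.10 with the floor at the 50th percentile). Gata2 passed through the non-Tg array alone. The mast cell genes Cpa3, Ms4a2, Fcer1a and Mcpt4 were under the floor on both arrays, and 0 of 5 melanocyte markers passed the filter. The other receptors of this group stood as follows. Flt3 had 5.60 in Tg, against 5.22 in non-Tg, and passed the filter through the Tg array, with a log2 ratio of 0.38 (0.16 with the floor at the 50th percentile). Csf1r, the receptor of Csf1, had 5.02 in Tg, against 4.97 in non-Tg, and did not pass, while Il34, its second ligand, had 5.68 in Tg, against 5.64 in non-Tg.

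Flt3 is also one of 10 markers of early progenitors, the cells that KIT and FLT3 ligands act on. All 10 were measured and 9 passed the filter, none was 2-fold apart, and 7 ratios lay above 0 and 3 below. The list median was 0.34 (0.19 with the floor at the 50th percentile), against 0.00 for all genes, and the summed level was 908 in Tg, against 789 in non-Tg. Of these markers Lyl1 (-0.08), Mef2c (-0.03) and Spi1 (0.01, not past the filter) lay near 0. Flt3 and Hhex (0.30) passed the filter through the Tg array alone. The highest ratio was that of Cd34 (0.53), which endothelial and stromal cells express too, and the lowest that of the transcription factor gene Bcl11a (-0.45). Endothelial markers had a median of 0.08, with Pecam1 at 0.48 and Egfl7 at -0.49.

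Both TGF-β genes had ratios above 0 but within the SD between probe sets. Tgfb1 had 6.84 on the Tg array and 6.63 on the non-Tg array, a log2 ratio of 0.20 (1.15-fold). Tgfb2 had 6.36 in Tg, against 6.25 in non-Tg, giving a log2 ratio of 0.10 (1.07-fold). Of all genes past the filter, 46.7% had a ratio at least as wide as that of Tgfb1 and 70.6% one at least as wide as that of Tgfb2. Tgfb3, the third ligand gene, had 5.62 in Tg, against 5.37 in non-Tg, and passed the filter through the Tg array alone. Its log2 ratio was 0.25 (0.17 with the floor at the 50th percentile).

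**Figure D2:**
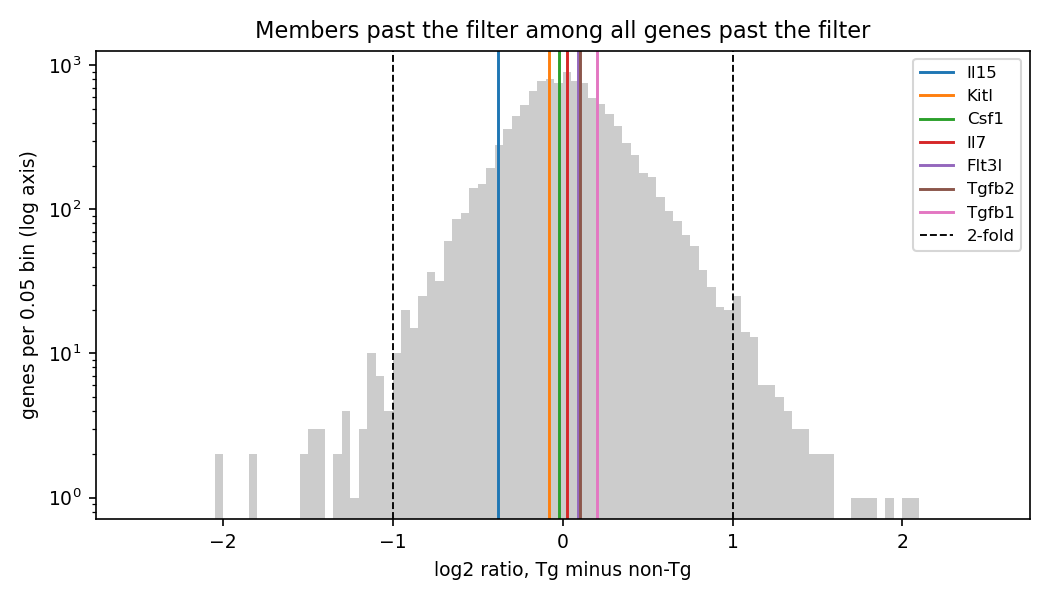
Histogram of the log2 ratio, Tg minus non-Tg, of the 11422 genes past the filter (grey, number of genes on a log axis), with a line for each of the 7 cytokine genes past the filter. The 7 lines lie between -0.38 (Il15) and 0.20 (Tgfb1), inside the dashed 2-fold lines and inside the central 95% of all genes, -0.62 to 0.72.

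Receptor, activation, signalling and target genes of these cytokines were compared through 6 lists with 64 genes, of which 58 were measured and 47 passed the filter. A list of 18 other cytokine genes was kept apart. None of the 47 was 2-fold or more higher or lower in Tg, where the share over all genes past the filter was 1.17%, so a count of 0 does not set these genes apart. Over the 58 measured genes, 30 ratios lay above 0, 27 below and 1 at 0, with a median of 0.02, against 0.00 over all genes.

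Among the receptor chains of the common γ family and TSLP, 7 of 8 were measured and 4 passed the filter. The list median was -0.27 (0 with the floor at the 50th percentile), with 2 ratios above 0 and 5 below, and the 4 genes past the filter were split evenly. Besides Il15ra and Crlf2, these were Il2ra, the IL-2 receptor α chain of early thymocytes, at 0.41, and Il4ra, the IL-4 receptor α chain, at 0.33. The common γ chain gene Il2rg had no value here. In the JAK and STAT list below the IL-7 receptor, 14 of 16 were measured and 13 passed the filter, with a median of -0.04. The kinase gene Jak1 had 9.92 in Tg, against 9.71 in non-Tg (0.20), and the transcription factor genes Stat5a and Stat5b had ratios of 0.02 (-0.01 after quantile normalization) and 0.25.

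The widest ratio in these lists was that of Socs2, an inhibitor of cytokine signalling induced by STAT5, with 6.95 in Tg, against 6.13 in non-Tg (0.82, 1.77-fold). It rests on 1 of 2 probe sets. The other had 5.67 in Tg, against 5.66 in non-Tg, a ratio of 0.00, and the mean of both gave 0.41. Cish, another inhibitor induced by STAT5, had -0.25, and the survival genes Bcl2 and Mcl1, which IL-7 maintains in lymphocytes, had -0.30 and -0.19. Closer to 0 in the same list were Socs1 (-0.08), Pim1 (-0.06) and Socs3 (-0.07, and 0.02 in its second probe set). Over this list 6 ratios lay above 0 and 8 below.

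**Figure D3:**
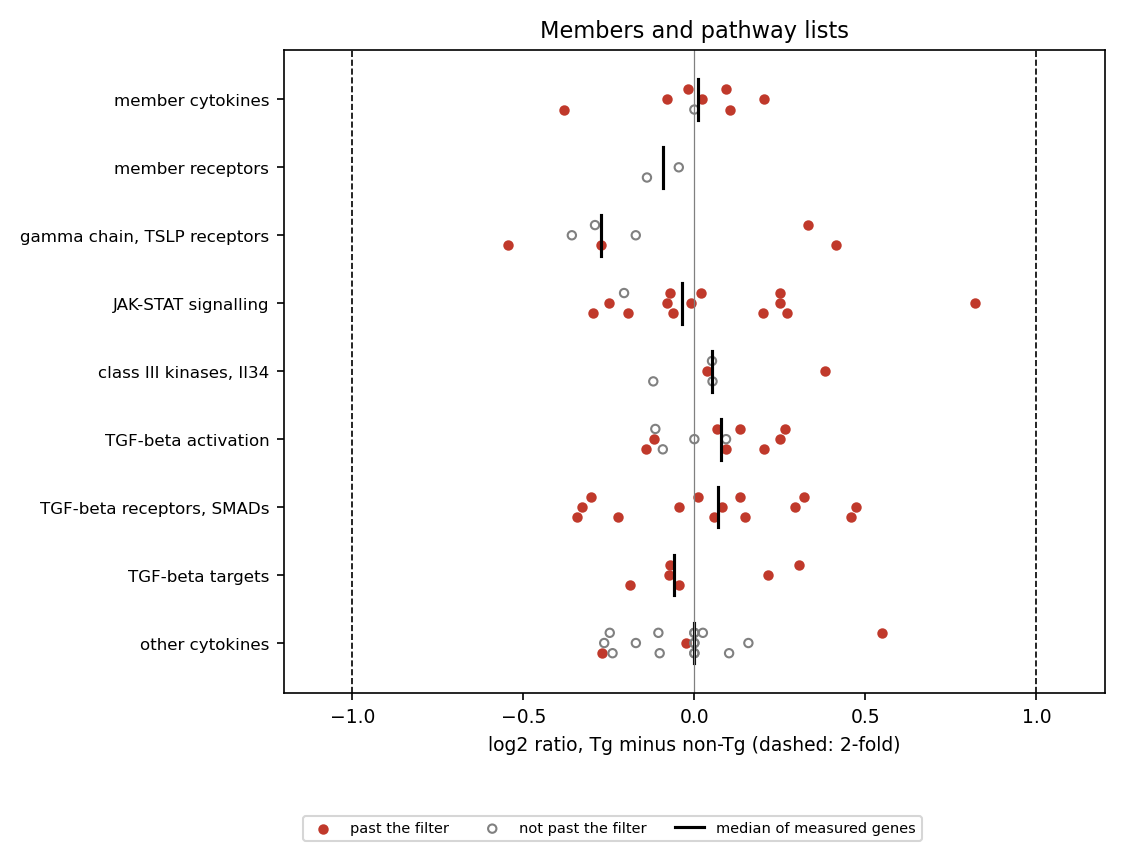
Log2 ratio, Tg minus non-Tg, of each measured gene of the cytokine and receptor groups and of 7 lists, the 6 pathway lists and other cytokine genes (filled points passed the filter, open points did not, bars are medians over measured genes). All points lie inside the dashed 2-fold lines, with Socs2 at 0.82 (0.41 for the mean of its 2 probe sets) and Il15ra at -0.54 the outermost.

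For the TGF-β pathway, 12 genes of ligand storage and activation were measured and 8 passed the filter, with a median of 0.08 and a range from -0.14 for Nrros, which tethers latent TGF-β1 on myeloid cells, to 0.27 for the integrin gene Itgav. All 14 genes of receptors and SMAD signalling were measured and passed the filter, with a median of 0.07. The receptor genes Tgfbr1 and Tgfbr2 had ratios of -0.30 and 0.29. The highest ratios of the list were those of Skil (0.47), a repressor of SMAD proteins, and Smurf2 (0.46), a ubiquitin ligase that limits the pathway. The second probe set of Smurf2 gave 0.24. The lowest was that of the coreceptor gene Eng (-0.34, and -0.14 with the floor at the 50th percentile). Eng passed the filter through the non-Tg array alone. Of 9 target genes 6 were measured and passed the filter, with a median of -0.06, Fn1 (fibronectin) at 0.31 and Tgif1, a corepressor, at 0.22. Fibroblast markers, cells that also make these proteins, had a median of 0.03 and ratios from -0.59 for Dpt to 0.51 for Postn.

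For the labelled cell type, 15 of 15 cTEC markers passed the filter, as did 11422 of all 19938 genes. Thymocyte markers passed for 13 of 14 measured genes, so passing the filter does not tell which cells the RNA came from. The protease gene Prss16 had 10.50 in Tg, against 10.36 in non-Tg, and the chemokine gene Ccl25 12.64 in Tg, against 12.58 in non-Tg. All 15 ratios lay above 0, from 0.01 for Cd83 to 0.57 for Ackr4, with a median of 0.14, although after quantile normalization Cd83 was at -0.06 and Krt8 at 0. Their summed level was 31219 in Tg, against 29134 in non-Tg. Medullary epithelial markers were measured for 11 of 12 genes, and 9 passed the filter, with a median of 0.01, Ctss at 0.77 and Tnfrsf11a at -0.39. Some of them lay far above the array medians. Krt5 had 10.73 in Tg, against 10.39 in non-Tg, and Trp63 9.13 in Tg, against 9.25 in non-Tg. B cell markers, cells whose precursors depend on IL-7, had 3 of 7 measured genes past the filter and a median of -0.04, with the transcription factor gene Ebf1 at -0.36, the surrogate light chain gene Vpreb1 at -0.04 and the receptor component gene Cd79a under the floor on both arrays. Whether these small shifts bear on the cytokine values was not tested.

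**Figure D4:**
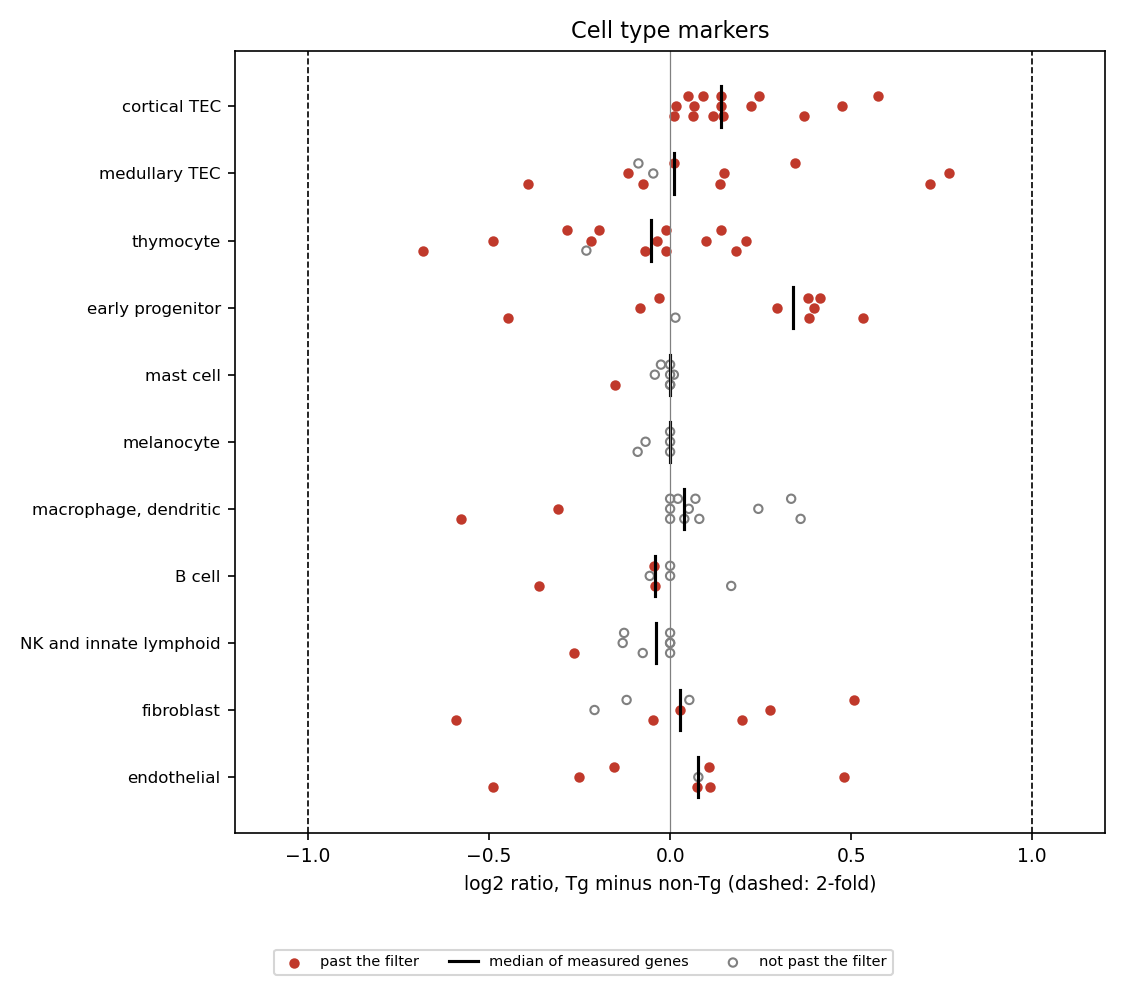
Log2 ratio, Tg minus non-Tg, of the marker genes of 11 cell types (filled points passed the filter, open points did not, bars are medians over measured genes). The 15 cTEC markers lie above 0 (after quantile normalization Cd83 is at -0.06 and Krt8 at 0) with a median of 0.14, the early progenitor markers have a median of 0.34 (0.19 with the floor at the 50th percentile), and no marker reaches the dashed 2-fold lines.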

How the data were processed

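The deposited table holds 1 value per probe set and array on a log2 scale. The scale was inferred from the range of the deposited values, 4.22 to 13.7 for Tg and 4.22 to 13.6 for non-Tg. For background correction, normalization and software, nothing is stated in the labels. Per the labels' protocols, the Ovation One-Direct kit amplified 400 pg of total RNA, and 5.5 µg of the resulting cDNA was labelled with biotin. Gene names came from GEO's platform annotation. Of the 28856 probe sets, 21789 had 1 symbol, 1621 several and 5446 none, and the IDs of 21698 were found in a RefSeq table of GRCm38.p6. The table held 0 columns of other samples.

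Values were used as deposited, with the floor at the 25th percentile, the filter at the 50th and a 2-fold rule. The probe set with the highest mean stood for a gene. With 1 array per group there was no test, and the number of arrays limits the precision. The rule for named genes took every member, Aire and Psmb11. Of each pathway list it took all genes past the filter and 2-fold apart, or the 2 with the widest ratio. Of each marker list it took the highest and lowest ratio past the filter. Other genes were chosen after their values were seen. The 10 genes and all lists were chosen with earlier results of these data known. Scan dates were not used here, and with 1 array per group batch and group cannot be told apart in any case. The rule was also run on simulated arrays, with known folds added only to brighter genes with 1 probe set. That run held no differences between mice, pools or amplification reactions. It says nothing on dim genes such as Tslp, Il7r and Kit. Python 3.11.15, numpy 2.4.6, pandas 2.3.3 and matplotlib 3.10.9 were used.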

Additional observations from a re-analysis of the deposited data

How the results depend on the processing

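No paired analysis was possible because each group has 1 array. The alternatives were no floor or a floor at the 50th percentile, no filter or one at the 75th percentile, arrays centred on their medians, quantile normalization, the mean over probe sets, and a 1.5-fold rule. The count of the 10 genes 2-fold or more higher or lower in Tg was 0 under each of them. Each of the 10 genes' ratios moved by less than 0.302, the SD between probe sets, in the 5 alternatives that can alter the ratio of some gene. For these 10 genes that was a weak check. The mean over probe sets could not alter them, since each had 1 probe set. Both floor settings left the ratios of the 7 genes past the filter unchanged, and centring moves those ratios by a constant. Il15 lay between -0.39 and -0.36, Il7 between 0 and 0.04 and Tgfb1 between 0.17 and 0.22. Csf1 was the only one of the 10 to change sign, from -0.02 to 0.00 with centred arrays, and Il7r reached 0 with the higher floor. With the floor at the 50th percentile, the median of the common γ and TSLP receptor list was 0, against -0.27, and that of the early progenitor markers, an alternative chosen after seeing the data, 0.19, against 0.34. A filter at the 75th percentile passed 3 of the 10 genes. The 1.5-fold rule called 1 gene of the pathway lists higher, Socs2. That call rests on 1 of its 2 probe sets, and the mean of both gave a log2 ratio of 0.41. Of the marker lists it called Ctss (0.77) and Cd86 (0.72, and 0.10 with the floor at the 50th percentile) higher. Cd86 passed the filter through the Tg array alone. Thy1 (-0.68) and Dpt (-0.59) were called lower. Over all genes it called 541 higher and 357 lower, against 91 and 43 at 2-fold. Tslp, Il7r and Kit lay too close to the lower end of the values for a difference to be measured.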

Other observations

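Other cytokine genes were mostly dim on these arrays. Of 18 measured, 3 passed the filter and 6 were under the floor on both arrays. Il6, an inflammatory cytokine also made by thymic epithelium, had 6.04 in Tg, against 5.49 in non-Tg, giving a log2 ratio of 0.55 (1.46-fold), and 9.27% of genes past the filter had a ratio at least as wide. Il33, an alarmin of epithelial and stromal cells, had 5.62 in Tg, against 5.89 in non-Tg (-0.27), and Il13 had 5.64 in Tg, against 5.67 in non-Tg. Il25, a tuft cell cytokine, had 5.32 in Tg, against 5.42 in non-Tg and did not pass. Il18, Il1a and Csf2 were under the floor on both arrays.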
